A study of Homo sapiens with 23 samples.

Results

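The genes described here are 7 markers of radial glia and neural progenitors, NES, PTPRZ1, SOX2, PAX6, VIM, FABP7 and SLC1A3. These markers were chosen by name, with earlier results of these data known. The expression tables listed 5 of them among 9497 genes, and the expression of FABP7 and SLC1A3 was not analysed here. They were followed in thalamus organoids (ThOs), three-dimensional cultures of human pluripotent cells patterned towards the thalamus, which the study grew from the H1 embryonic stem cell line. The WT groups came from unedited H1 cells. The KO groups came from H1 cells edited with CRISPR/Cas9 at c-JUN, which encodes one partner of the dimeric transcription factor AP-1. The study made the KO clones 2 and 10, and the labels do not say which clone a library came from. The OE groups came from KO cells in which c-JUN was expressed again from a doxycycline-inducible plasmid, and whether WT and KO cultures also received doxycycline is not given in the sources used here. All groups shared dual SMAD inhibition with LDN-193189 and SB431542, followed by thalamus patterning with BMP7 and PD325901. Before collection the ThOs were moved to a neural differentiation medium with BDNF and ascorbic acid. ThOs were collected at day 25 and day 30 of culture, with 2 RNA-seq libraries per genotype and day, 12 in all, each from 3 pooled ThOs.

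Radial glia are the stem cells of the developing brain. Their cell bodies line the ventricle, their long fibers reach the outer surface, and they divide to renew themselves and to give rise to neurons, often through intermediate progenitors. NES and VIM encode intermediate filament proteins of these fibers. SOX2 and PAX6 encode transcription factors of the progenitor state, and SOX2 is also a pluripotency factor. PTPRZ1 encodes a receptor tyrosine phosphatase at the surface of radial glia that binds pleiotrophin and midkine. FABP7 encodes a fatty acid binding protein and SLC1A3 a glutamate transporter of glial cells. The question put to these libraries was whether the progenitor markers differ between WT, KO and OE ThOs, since the study stained NESTIN in ThOs and used PAX6 and NESTIN to follow progenitors in other cultures.

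The values are normalized expression values that the authors rounded to whole numbers. They ran from 11 to 9910 with a median of 106 in each library, and the read depth behind them is unknown. They are not known to be per length, so levels were compared between libraries and not between genes. In the libraries labelled KO the edited gene was higher and not lower: JUN (ENSG00000177606, chromosome 1) ranged from 196 to 353 in the 4 KO libraries, from 128 to 162 in the 4 WT libraries and from 202 to 362 in the 4 OE libraries. The difference between KO and WT over both days was 0.77 on the log2 scale (SE 0.229, limma adjusted p = 0.197), and it did not pass the test. A loss of JUN transcript is thus not seen in the libraries labelled KO. Between OE and KO, JUN differed by -0.03 (95% interval -0.53 to 0.47, limma adjusted p = 0.949), so a higher JUN level in OE than in KO is not seen either. These are RNA values and do not measure c-JUN protein. By western blot the study reported no c-JUN protein in the KO cell lines, and its overexpression with doxycycline. By RT-qPCR it reported no c-JUN mRNA in KO progenitor cultures and cerebral organoids. The genotype label of the OE libraries is also c-Jun Knockout, and only their titles, which add +cJun, name the expressed gene. KO and OE here stand for these labels and titles. The KO replicates also lay farther apart than others: across all genes, Spearman's rho between the 2 replicates of KO was 0.821 at day 25 and 0.769 at day 30, while the other 4 groups gave 0.936 to 0.959. Of the cell type markers, 1 of 8 pluripotency genes, SOX2, was listed, although the labels call the cell type embryonic stem cells. Of 16 thalamus genes 7 were listed, of 28 neuron genes 25 and of 50 further radial glia and progenitor genes 38.

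Over all 12 libraries Pearson's r of log2 values with SOX2 was 0.81 for PTPRZ1 and -0.03 for PAX6. Over the 8 WT and OE libraries it was 0.32 and -0.84. Of deviations from the group means, over the 12 libraries, it was 0.89 and 0.34. The bases just upstream of these 3 genes are shown (RefSeq, GRCh38.p14, 5' to 3' on the strand of the gene). For PTPRZ1 the bases that the deposited gene span already covers were left off. Capitals mark matches to the motifs searched.
SOX2 (chr3:181711675-181711924, plus strand): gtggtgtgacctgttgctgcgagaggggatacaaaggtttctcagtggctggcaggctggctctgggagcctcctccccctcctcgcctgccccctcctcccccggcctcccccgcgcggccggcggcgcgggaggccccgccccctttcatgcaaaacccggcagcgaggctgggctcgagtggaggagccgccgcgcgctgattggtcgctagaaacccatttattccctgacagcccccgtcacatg
PTPRZ1 (chr7:121872911-121873088, plus strand): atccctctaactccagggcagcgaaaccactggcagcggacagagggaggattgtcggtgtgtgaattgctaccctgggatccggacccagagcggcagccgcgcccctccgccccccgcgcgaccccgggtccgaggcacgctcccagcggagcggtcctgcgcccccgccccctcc
PAX6 (chr11:31817962-31818211, minus strand): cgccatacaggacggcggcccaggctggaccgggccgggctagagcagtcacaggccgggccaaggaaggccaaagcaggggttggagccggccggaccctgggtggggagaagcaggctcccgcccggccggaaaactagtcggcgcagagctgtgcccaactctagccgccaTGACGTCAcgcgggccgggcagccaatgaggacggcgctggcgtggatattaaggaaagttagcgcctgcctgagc
Each RefSeq window was searched on both strands, over the 250 bases before its start, for TGANTCA (the AP-1 motif), TGACGTCA (the CRE motif), TGGGAA (the RBPJ core), CATTGT (the SOX core) and TATAAA (the TATA box). None of these letters occurred in the window of SOX2, PTPRZ1, NES, VIM or FABP7. Of the 3 SLC1A3 windows, 1 held TGANTCA, between 122 and 128 and between 20 and 26 bases before the start. Of the 9 PAX6 windows, 1 held TGACGTCA, in the stretch shown, between 69 and 76 bases before the start, and 1 other held CATTGT. Of all 35116 windows, 6.57% held TGANTCA, 1.65% TGACGTCA, 20.8% TGGGAA, 9.29% CATTGT and 10.7% TATAAA. TGACGTCA and TGANTCA differ in length and were matched separately. A match is a description of letters and says nothing of binding.

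SOX2 (ENSG00000181449, GRCh38 chromosome 3, 181711925 to 181714436) had its highest mean value in OE and its lowest in KO. Over both days its libraries overlapped between each pair of genotypes. In WT its normalized value was 220 and 293 at day 25 and 248 and 334 at day 30. In KO it was 139 and 134 at day 25 and 382 and 130 at day 30. In OE it was 284 and 454 at day 25 and 531 and 465 at day 30. Thus 3 of 4 KO libraries lay below all WT libraries, and the fourth, KO at day 30 replicate 1, lay above all of them. Averaged over the days, SOX2 rose in OE against KO by 1.27 on the log2 scale (SE 0.295, 95% interval 0.62 to 1.92, limma adjusted p = 0.0429), a 2.41-fold difference, the only call among the 5 markers in any comparison. In that comparison 1.05% of all genes were called higher. The call was lost, with the same difference, under 4 other designs, namely the replicate number as a block (adjusted p = 0.0617), library weights (0.0808), no intensity trend (0.0735) and only the KO and OE libraries (0.125). It was also lost in 7 of the 8 fits that left out 1 library, where the adjusted p lay between 0.061 and 0.177, and in the fit without KO at day 30 replicate 1 the adjusted p was 0.00103. Without replicate 2 of both KO groups the difference was 0.87 (adjusted p = 0.0518). By the exact two-sided permutation test of 4 libraries against 4, the p was 0.0571. At single days the difference was 1.39 at day 25 (limma adjusted p = 0.121) and 1.15 at day 30 (adjusted p = 0.411), and at both days the OE libraries lay above the KO libraries, as in 24.5% of all genes at day 25 and 18.7% at day 30.

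Against WT, SOX2 differed by -0.63 in KO over both days (SE 0.295, limma adjusted p = 0.338) and by 0.64 in OE (SE 0.295, adjusted p = 0.611). Neither passed the test. The KO difference was -0.89 at day 25 and -0.37 at day 30, and without KO at day 30 replicate 2 the day 30 difference turned to 0.41. In OE at day 30 both libraries stood above both WT libraries, with a difference of 0.79 (limma adjusted p = 1), where 21% of all genes had OE libraries wholly above WT, and at day 25 the libraries overlapped. The order of the mean SOX2 value was OE (434 ± 105, SD, n = 4), WT (274 ± 50.2, SD, n = 4) and KO (196 ± 124, SD, n = 4), and of these neighbours neither KO and WT nor OE and WT passed the test.

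**Figure D1:**
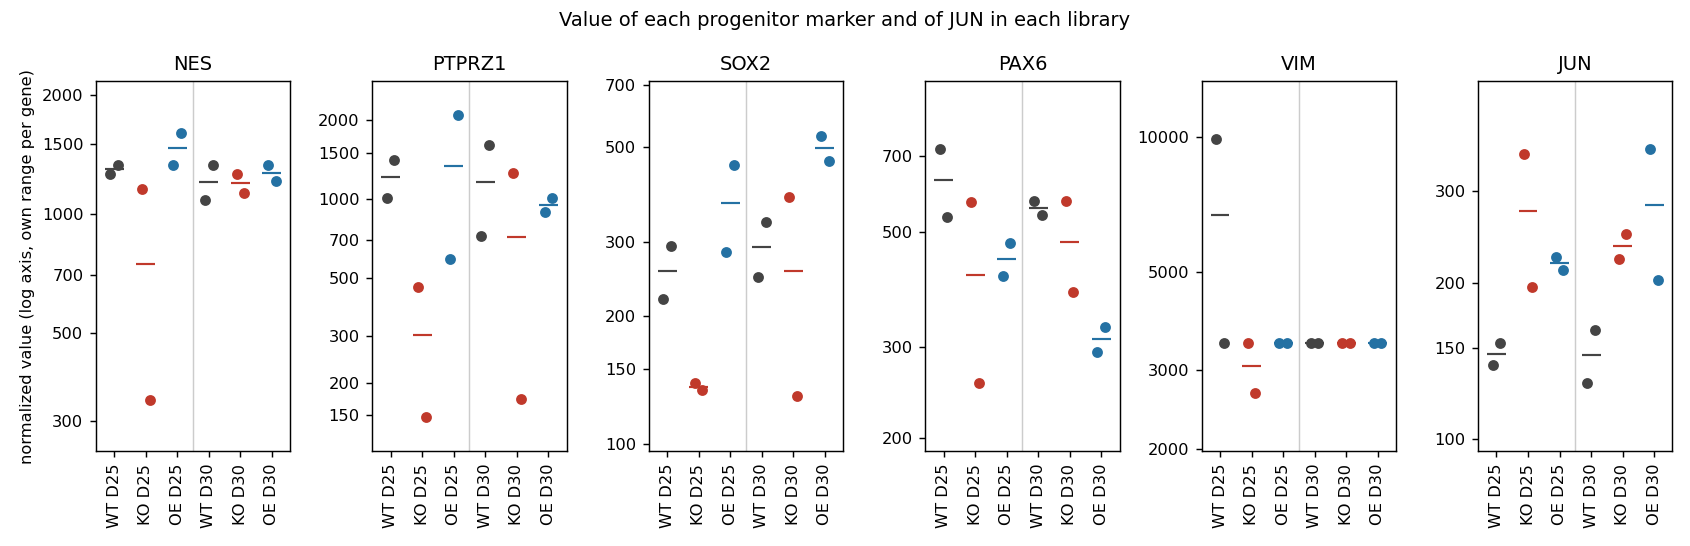
Normalized value of NES, PTPRZ1, SOX2, PAX6, VIM and JUN in each library (log axis with its own range per gene), by genotype and day, with 1 point per library (replicate 1 left, replicate 2 right) and a bar at the mean of the 2. In PTPRZ1 and SOX2, KO at day 30 holds 1 library far below WT and 1 within the WT range (PTPRZ1) or above it (SOX2), and VIM differs from 3452 or 3456 in 2 libraries, at 9910 and at 2670.

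PTPRZ1 (ENSG00000106278, GRCh38 chromosome 7, 121873089 to 122062036) had the widest range of the 5 markers on the log2 scale, with normalized values from 148 to 2094. In WT its value was 1014 and 1412 at day 25 and 722 and 1608 at day 30. In KO it was 462 and 148 at day 25 and 1261 and 174 at day 30. In OE it was 592 and 2094 at day 25 and 898 and 1014 at day 30. The 2 KO libraries at day 25 lay below all WT and OE libraries, as did replicate 2 of KO at day 30. Its difference in KO against WT at day 25, -2.19 on the log2 scale (SE 0.845, 95% interval -4.04 to -0.33), was the 10th in size of 9497 genes in either direction, and it did not pass the test (limma adjusted p = 0.299). At day 30 the difference was -1.20 (adjusted p = 0.662), and over both days -1.69 (SE 0.598, adjusted p = 0.24). Without KO at day 30 replicate 1 the value over both days became -2.41 and passed, and without KO at day 30 replicate 2 it became -0.98. In OE against KO the difference over both days was 1.55 (SE 0.598, adjusted p = 0.166), and it was 0.43 without replicate 2 of both KO groups. In OE against WT it was -0.14 (95% interval -1.45 to 1.17), so changes of either sign of over 2-fold lie within the interval. Replicates of PTPRZ1 within a group differed by up to 7.25-fold, in KO at day 30, and by 3.54-fold in OE at day 25.

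The receptor's ligands and partners did not share a direction. Of 13 such genes 12 were listed, and 0 were called in KO against WT over both days, by limma, where 2 had an unadjusted p under 0.05, 1 in each direction. The median difference was -0.07, beside -0.02 over all genes. The ligands and partners with the largest differences there were TNC and CNTN1. TNC encodes the matrix protein tenascin-C and is also a gene of outer radial glia. It ranged from 78 to 144 in WT, from 11 to 51 in KO and from 12 to 28 in OE, and its groups of 4 did not overlap between WT and either of the others (3.14% of all genes were lower in this way in KO and 4.34% in OE). The difference was -1.96 in KO against WT (SE 0.382, limma adjusted p = 0.13) and -2.31 in OE against WT (SE 0.382, adjusted p = 0.0467), and the second passed the test. That call was lost with the replicate block, with no trend and in all 8 fits that left out 1 library (adjusted p from 0.0959 to 0.309). With library weights the limma adjusted p of TNC in OE against WT was 0.00154, and with only the WT and OE libraries 0.00858. TNC was thus below the WT range in the OE libraries, while no SOX2 value in OE lay below the WT range of SOX2. PTPRZ1 lay below its own WT range only in OE at day 25 replicate 1 (592, against 722 to 1608 in WT). CNTN1, a neuronal surface protein that binds PTPRZ1, ranged from 118 to 175 in WT, from 170 to 532 in KO and from 100 to 112 in OE. It fell by 1.71 in OE against KO (SE 0.273, adjusted p = 0.0133), where 1.17% of all genes were called lower, and the call was lost with only the KO and OE libraries and in 3 of 8 fits without 1 library.

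NES (ENSG00000132688, GRCh38 chromosome 1, 156668763 to 156677407) stood at a like level in 11 of the 12 libraries. In WT its value was 1260 and 1330 at day 25 and 1082 and 1330 at day 30. In KO it was 1159 and 340 at day 25 and 1259 and 1130 at day 30. In OE it was 1330 and 1604 at day 25 and 1330 and 1214 at day 30. Only KO at day 25 replicate 2 left the range of 1082 to 1604 that held the other 11. The day 25 difference in KO against WT, -1.04 (SE 0.404, limma adjusted p = 0.3), became -0.16 without that library. At day 30 it was -0.01 (95% interval -0.89 to 0.88), and the interval reaches changes close to 2-fold in either direction. OE against KO over both days gave 0.65 (adjusted p = 0.207), and 0.21 without the same library.

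VIM (ENSG00000026025, GRCh38 chromosome 10, 17228241 to 17237593) was among the most highly valued genes, and its values show how the tables were made. It stood at 3452 or 3456 in 10 libraries, at 9910 in WT at day 25 replicate 1 and at 2670 in KO at day 25 replicate 2. In each library 8 to 10 genes shared the top value of 9910, and the next value was 3456, a step of 1.52 on the log2 scale with nothing between. VIM held place 10 to 16 in 10 libraries, shared place 1 in WT at day 25 replicate 1 and held place 27 in KO at day 25 replicate 2. Its difference in KO against WT at day 25, -0.94 (SE 0.343, limma adjusted p = 0.277), became -0.18 without WT at day 25 replicate 1 and -1.71 without the other WT library. At day 30 VIM did not differ between the values of WT, OE (3452 in all 4 libraries) and KO (3452 and 3456). Differences of VIM smaller than a step cannot be read from these tables.

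**Figure D2:**
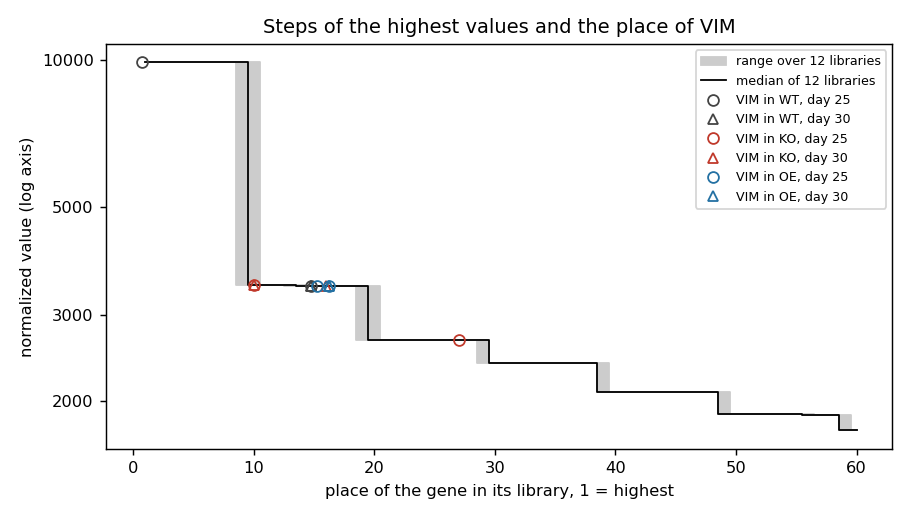
Normalized value (log axis) of the 60 highest places in a library, as the median and range over the 12 libraries, with VIM marked in each library. The values fall in steps, and 10 of the 12 VIM points lie on the step at 3452 to 3456, with 1 on the step at 9910 and 1 at 2670.

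PAX6 (ENSG00000007372, GRCh38 chromosome 11, 31784779 to 31817961) differed from the other markers in the OE libraries. In WT its value was 722 and 533 at day 25 and 572 and 538 at day 30. In KO it was 570 and 255 at day 25 and 572 and 382 at day 30. In OE it was 410 and 476 at day 25 and 293 and 328 at day 30. All 4 OE libraries lay below all 4 WT libraries, and the KO libraries spanned both. The difference in OE against WT over both days was -0.66 on the log2 scale (SE 0.234, 95% interval -1.18 to -0.15), and it did not pass the test (limma adjusted p = 0.463). With library weights the adjusted p was 0.0232 and with only the WT and OE libraries 0.0357, at the same difference, which is under 2-fold. Both settings lessen or leave out the part of the KO libraries in the spread, so they are not separate alternatives. Over the other settings with all libraries the adjusted p lay between 0.442 and 0.552. The exact two-sided permutation p was 0.0286, the smallest that 4 against 4 libraries can give, unadjusted over the 15 such tests made on the 5 markers. Of all genes, 4.34% had OE libraries wholly below WT libraries, and 1 of the 5 markers did. At single days the difference was -0.49 at day 25 and -0.84 at day 30 (adjusted p = 1 at both), with the OE libraries below the WT libraries each time, as in 19.6% of all genes at day 25 and 21.8% at day 30. In KO against WT the difference was -0.70 at day 25 (adjusted p = 0.388) and -0.25 at day 30 (adjusted p = 0.811). The mean value was 591 ± 88.9 (SD, n = 4) in WT, 445 ± 155 (SD, n = 4) in KO and 377 ± 82.4 (SD, n = 4) in OE, and KO did not pass the test against either neighbour.

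**Figure D3:**
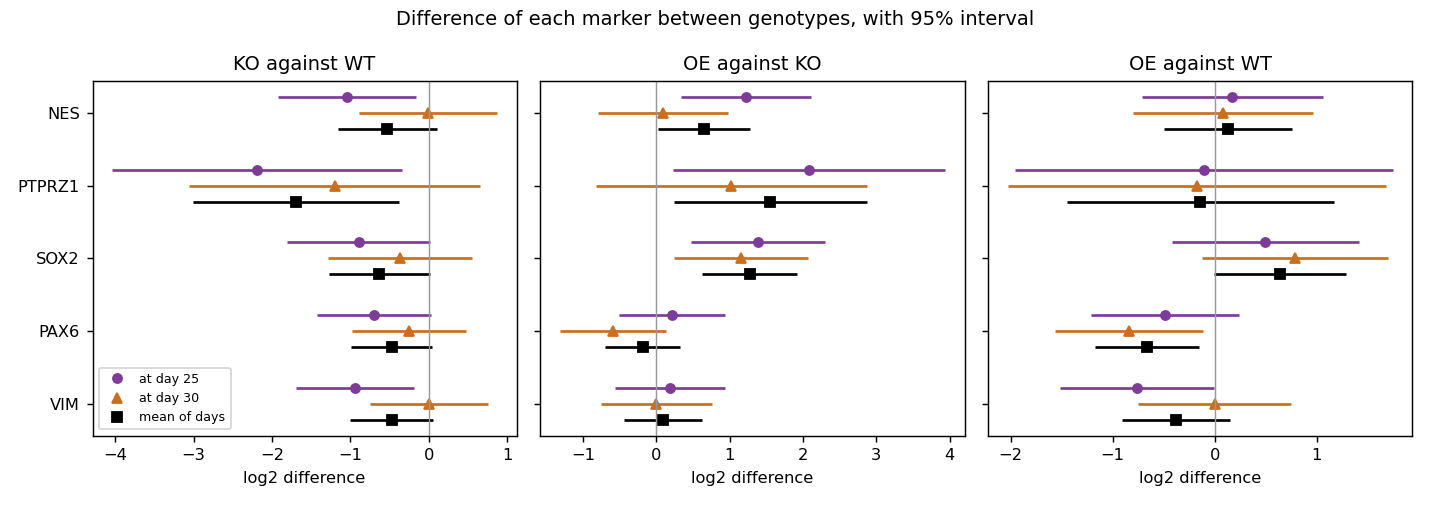
Log2 difference of each marker between genotypes (points) with its 95% interval from limma (lines), at day 25, at day 30 and as the mean of both days, in 1 panel per pair of genotypes. The KO libraries enter the first 2 panels, so these share data, and SOX2 in OE against KO over both days (1.27, interval 0.62 to 1.92) is the one value that passed the test.

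Seen over the 5 markers, KO against WT at day 25 gave 0 calls, where 0.0105% of all genes were called, and 3 markers with an unadjusted p under 0.05 by limma (NES, PTPRZ1 and VIM), where 13.4% of all genes had one. All 5 differences were negative, with a median of -0.94 beside -0.02 over all genes, and in NES, PTPRZ1 and SOX2 the KO libraries lay wholly below the WT libraries, as in 21.3% of all genes. Over both days KO against WT gave 0 calls (0.0211% of all genes) and 1 marker, PTPRZ1, with an unadjusted p under 0.05 (15.2%). At day 30 there were 0 calls (0% of all genes) and 0 markers with an unadjusted p under 0.05 (7.36%), and the median difference was -0.25. The KO difference itself did not pass the limma interaction test between the days in any of the 5 markers, with adjusted p values from 0.802 to 0.886 (0% of all genes passed) and 0 unadjusted p values under 0.05 (5.63% of all genes), at a design that leaves wide intervals (for NES -0.22 to 2.29). OE against KO at day 25 gave 0 calls (0.274% of all genes) and 3 markers with OE libraries wholly above KO libraries (24.5% of all genes higher in this way). At day 30 there were 0 calls (0.0842%), and over both days SOX2 was the 1 call (2.22% in either direction) and 3 markers, NES, PTPRZ1 and SOX2, had an unadjusted p under 0.05 (22.2%). Both comparisons use the same KO libraries, so their opposite signs are not separate evidence. OE against WT over both days gave 0 calls (0.158% of all genes), as at day 25 (0%) and at day 30 (0.0316%), with 1 marker, PAX6, at an unadjusted p under 0.05 (8.21%).

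From day 25 to day 30, averaged over genotypes, 0 markers passed the limma test (0% of all genes were called) and 0 had an unadjusted p under 0.05 (11.3% of all genes). The largest difference was that of SOX2, 0.45 (SE 0.241, adjusted p = 0.519). Within WT the differences of NES, PTPRZ1, SOX2 and PAX6 lay between -0.16 and 0.18, and that of VIM was -0.76 and again rested on WT at day 25 replicate 1. Within KO, NES differed by 0.92 (adjusted p = 0.361) and by 0.04 without KO at day 25 replicate 2.

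PTPRZ1 and SOX2 varied together when the KO libraries were included. Over the 12 libraries Pearson's r of their log2 values was 0.81 and Spearman's rho 0.69, and r was 0.61 without the 2 libraries farthest from the PTPRZ1 median, which were both KO libraries numbered 2. Of deviations from the group means r was 0.89, and in 5 of 6 groups the replicate with more PTPRZ1 also had more SOX2. Over the 8 WT and OE libraries r was 0.32, and over 6 of these, without both OE libraries at day 25, it was 0.008. The points share libraries, groups and normalization, and these correlations are a description. NES and SOX2 had an r of 0.57 over the 12 libraries and 0.45 over the 8 without KO, and the higher replicate was the same for both genes in 6 of 6 groups. For this pair r was -0.087 over 6 of those 8, without OE at day 25 replicate 2 and WT at day 30 replicate 1. SOX2 and PAX6 had an r of -0.03 over the 12 libraries and -0.84 (rho -0.83) over the 8 without KO, and -0.58 over 6 of these, without both OE libraries at day 30. Those 2 libraries had the highest SOX2 and the lowest PAX6 among the 8. For SOX2 and PAX6, r of deviations from the group means over the 12 libraries was 0.34. The higher replicate was the same for both genes in 3 of 6 groups.

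**Figure D4:**
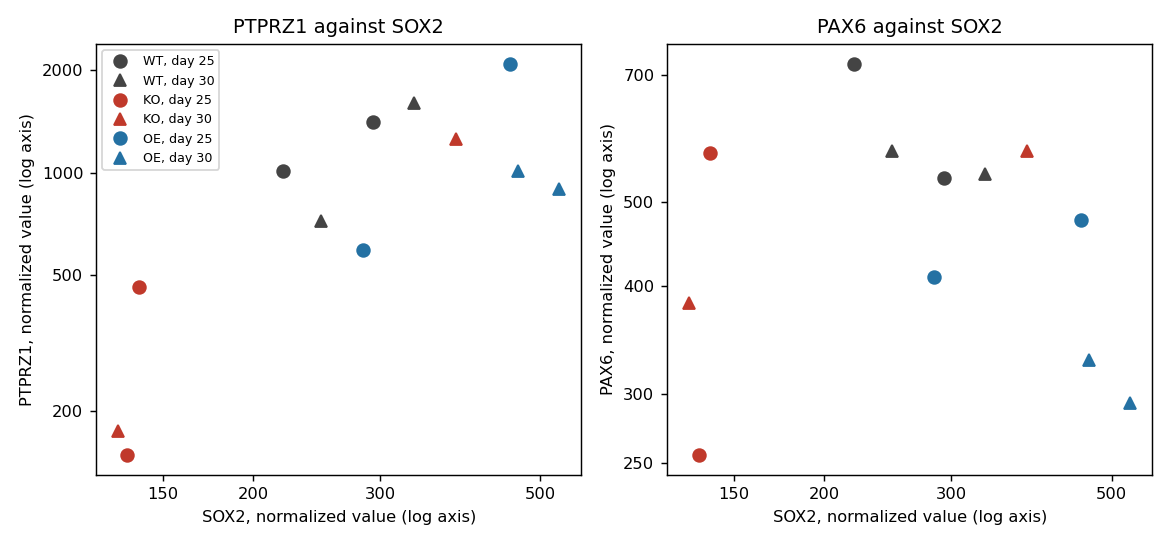
Normalized value of PTPRZ1 (left) and PAX6 (right) against that of SOX2 in the 12 libraries (log axes), with 1 point per library, colour for genotype and shape for day. PTPRZ1 is low where SOX2 is low, in 3 of the 4 KO libraries, and PAX6 is lowest among the WT and OE libraries in the 2 OE libraries at day 30, where SOX2 is highest.

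By likeness of pattern over the 12 libraries, the genes nearest to SOX2 included CNTFR, a receptor subunit for ciliary neurotrophic factor (r = 0.98), and CKB, the brain creatine kinase (r = 0.97). CNTFR ranged from 52 to 144 in KO, from 80 to 138 in WT and from 116 to 180 in OE. Those nearest to PTPRZ1 included FUT9, a fucosyltransferase that makes the Lewis X sugar (r = 0.97), and BNIP2 (r = 0.93). Nearest to NES were GLDC, an enzyme of glycine cleavage (r = 0.98), ZNF275 (r = 0.95) and MCM4, a subunit of the replicative helicase (r = 0.94). GLDC was at 11 in the same KO library in which NES was at 340 and lay between 80 and 132 in WT and OE. For NES the likeness was lower by rank, with Spearman's rho of 0.83, 0.56 and 0.67 for the 3 genes. Nearest to PAX6 were AFF4 (r = 0.91), CAMSAP3 (r = 0.91) and FNDC4 (r = 0.88), and nearest to VIM was EEF2, an elongation factor (r = 0.97), which sits on the same kind of step, at 2672 to 2674 in 11 libraries and at 3454 in 1.

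The further radial glia and progenitor genes, a list of 50 with 38 tested, had a median difference of -0.41 in KO against WT over both days (all genes -0.02), with 32 of 38 below 0, 18 with an unadjusted p under 0.05 in that direction and 0 calls by limma. In OE against KO the median was 0.42 (all genes 0.01), with 32 of 38 above 0 and 1 called higher, NOTCH3, where 2.22% of all genes were called in either direction. NOTCH3 lost its call under the replicate block, library weights, no trend and only the KO and OE libraries, and the number of genes of the list called higher ran from 0 to 10 with 1 library left out, the 10 without KO at day 30 replicate 1. In OE against WT the median was 0.11, and TNC was the 1 call, lower. The 2 genes of the list with the largest differences in OE against KO were NOTCH1, a receptor that keeps progenitors undifferentiated, and TTYH1, a membrane protein of neural stem cells. NOTCH1 ranged from 84 to 408 in KO and from 480 to 586 in OE, with a difference of 1.67 (SE 0.455, adjusted p = 0.0699). TTYH1 ranged from 108 to 480 in KO and from 524 to 732 in OE, with a difference of 1.37 (SE 0.336, adjusted p = 0.0507). Neither passed the test, and neither overlapped between KO and OE (5.17% of all genes were higher in OE in this way). In KO against WT the largest were TNC and HMGA2, a chromatin protein of early progenitors, at -1.26 (SE 0.369, adjusted p = 0.197). The median over this list of the deviation from each gene's mean lay between -0.34 and -0.45 in 3 KO libraries and at 0.21 in KO at day 30 replicate 1, and between 0.02 and 0.22 in the WT and OE libraries.

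Markers of other cell states moved beside these values. Of 26 listed cell cycle genes, 23 were below 0 in KO against WT over both days (median -0.47, 0 calls, 13 with an unadjusted p under 0.05, all lower, by limma) and 25 above 0 in OE against KO (median 0.70), of which 5 rose: MKI67, CCNA2, UBE2C, BUB1 and MCM7. In KO against WT, 25 were below 0 at day 25, 13 of them with an unadjusted p under 0.05 by limma. At day 30 these numbers were 17 and 2. MKI67, the gene of the proliferation antigen Ki-67, ranged from 109 to 353 in KO and from 441 to 570 in OE, and rose by 1.55 (SE 0.321, adjusted p = 0.032). CCNA2, which encodes cyclin A2, ranged from 20 to 90 in KO and from 104 to 150 in OE and rose by 1.36 (SE 0.271, adjusted p = 0.029). With 1 library left out the number of cell cycle genes called higher in OE against KO lay between 0 and 7, and without replicate 2 of both KO groups it was 2. Under the replicate block it was 3, and under weighted libraries 1. Of 14 intermediate progenitor genes 6 were listed, all 6 above 0 in OE against KO, and 1 rose, HES6, a gene of committed neuronal precursors, which ranged from 42 to 90 in KO and from 195 to 324 in OE (1.72, SE 0.238, adjusted p = 0.0085). Against WT, where HES6 ranged from 78 to 106, it also rose in OE, by 1.40 (adjusted p = 0.0495). With library weights the limma adjusted p of HES6 against WT was 0.000996, and with only the WT and OE libraries 0.00514. The call against KO was lost in 1 of 8 fits without 1 library (without OE at day 30 replicate 2) and with only the KO and OE libraries, and that against WT in 8 of 8, with the replicate block and with no trend.

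Neuron genes differed in both directions. Of 25 listed, 17 were above 0 in KO against WT over both days (median 0.10, 0 calls, 4 with an unadjusted p under 0.05 by limma). At day 25 the median was 0.48, with 20 of 25 above 0 and 5 higher and 0 lower at an unadjusted p under 0.05, and at day 30 it was -0.08, with 9 above 0, 1 higher and 2 lower. In OE against KO over both days 1 rose and 1 fell. NHLH1, a transcription factor of new-born neurons, rose in OE against KO by 1.69 (SE 0.388, adjusted p = 0.0422), with values from 16 to 86 in KO and from 82 to 168 in OE. The gene that fell was ONECUT2, a homeodomain transcription factor, which differed by -1.46 (SE 0.269, limma adjusted p = 0.0212). The call of NHLH1 was lost under the replicate block, library weights, no trend and only the KO and OE libraries, in 6 of 8 fits without 1 library and, at 0.93, without replicate 2 of both KO groups, and that of ONECUT2 under library weights and only the KO and OE libraries and in 4 of 8. ELAVL3, an RNA-binding protein of neurons, differed by 1.56 (SE 0.51, adjusted p = 0.113). The other intermediate filament genes, listed for 11 of 16 with NES and VIM among them, had a median of 0.08 in KO against WT. KRT8 and KRT18, keratins of simple epithelia, fell in OE against KO by 1.33 (SE 0.301, adjusted p = 0.0405) and by 1.05 (SE 0.245, adjusted p = 0.0437). Both calls were lost with library weights, no trend, only the KO and OE libraries and without replicate 2 of both KO groups, and each in 6 of 8 fits without 1 library, and with the replicate block that of KRT18 was lost. Of 10 glial transporter and fatty acid binding protein genes 3 were listed, SLC1A2, SLC1A4 and GLUL, with 0 calls in KO against WT by limma and 2 with an unadjusted p under 0.05, SLC1A2 at -0.51 and SLC1A4 at -0.46.

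Genes of roof plate and choroid plexus, tissues that lie beside the thalamus, were listed for 18 of 22. In OE against KO 2 rose (RSPO2 and WNT8B) and 3 fell (CLDN1, LMX1B and MSX1), with RSPO2, a Wnt agonist, differing by 3.25 (SE 0.477, adjusted p = 0.0098) and CLDN1, a tight junction protein, differing by -3.20 (SE 0.35, adjusted p = 0.0021). With library weights 0 were called higher and 1, CLDN1, lower, and with 1 library left out 1 to 2 were called higher and 1 to 5 lower. CLDN1 kept its call in every fit named here. In KO against WT they had a median of 0.56, with 12 of 18 above 0, 0 calls and 10 with an unadjusted p under 0.05 by limma, 8 of them higher. The list's median deviation was highest, at 0.75, in KO at day 25 replicate 2, the library in which NES, PTPRZ1, PAX6 and VIM had their lowest values. Of the 17 mesenchyme and neural crest genes 5 were listed, and their median deviation was highest, at 0.90, in the same library. Thalamus genes, 7 listed, had 0 calls in any of these 3 comparisons by limma. Over all 7 the difference in OE against KO was above 0 (median 0.34), 0 had an unadjusted p under 0.05, and the largest was that of TCF7L2, 0.64 (adjusted p = 0.444). The 2 telencephalon genes listed of 10, NR2F1 and NR2F2, had 0 calls by limma, with 1 at an unadjusted p under 0.05 in each of KO against WT and OE against KO. In OE against WT both were at an unadjusted p under 0.05 and higher, with NR2F2 at 0.64 (limma adjusted p = 0.232) and NR2F1 at 0.54 (adjusted p = 0.367). The part of these other cell types in the values of the progenitor markers was not tested, and in pooled organoids fewer progenitor cells and less marker RNA per cell cannot be told apart.

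**Figure D5:**
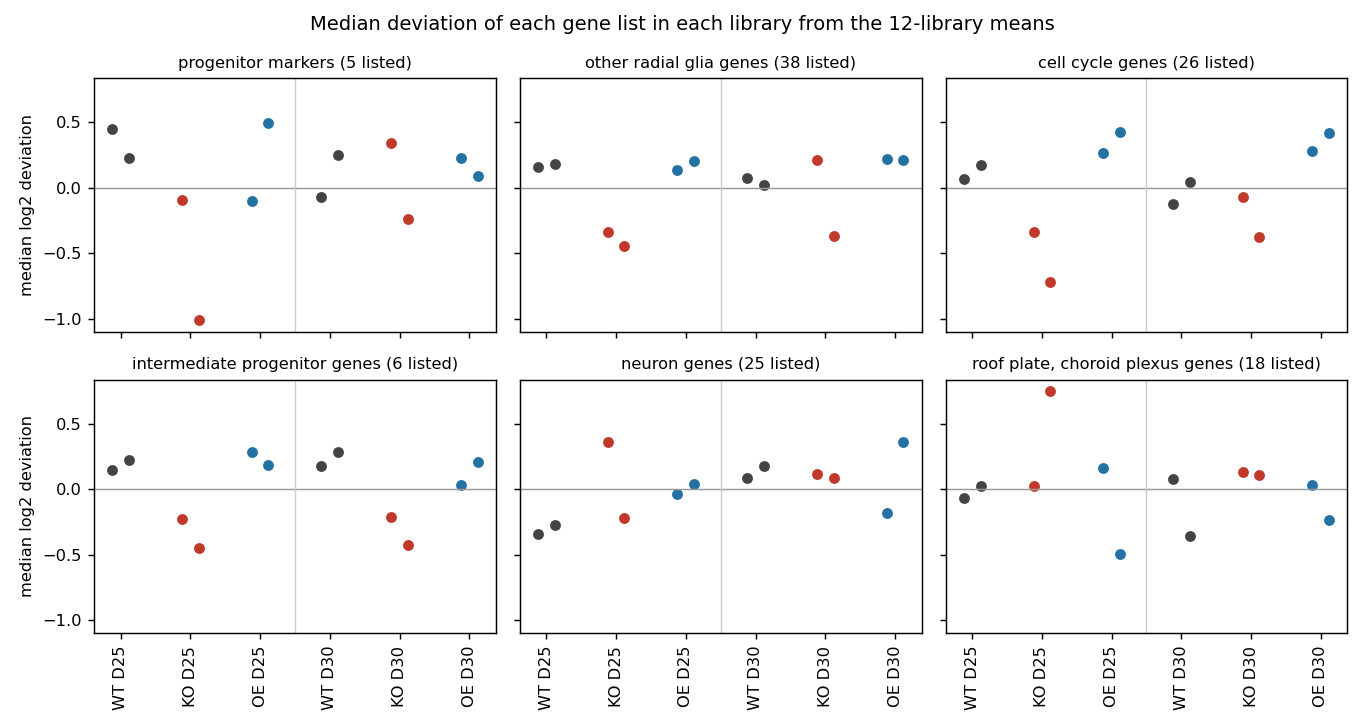
Median over the genes of a list of the log2 deviation from each gene's mean over 12 libraries, with 1 point per library by genotype and day, for the 5 progenitor markers and 5 other lists. The cell cycle and intermediate progenitor genes lie below 0 in all 4 KO libraries, and the further radial glia genes in 3 of 4. The cell cycle genes also lie below 0 in WT at day 30 replicate 1 (-0.12), lower than in KO at day 30 replicate 1 (-0.07).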

How the data were processed

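RNA was sequenced from 12 ThO libraries (total RNA, stranded kit, per the study's methods), and the 9 ATAC-seq and 2 CUT&Tag samples of the series were left aside. Each library has a table, as the authors deposited it, with 1 normalized expression score per gene, rounded to whole numbers. How the score was normalized is not given in the sources used here. The submitters' processing notes name bcl2fastq, RSEM and Bowtie2 and the build hg19 without a role, while the deposited positions lie on GRCh38: of the symbols, 9386 were found in RefSeq GRCh38.p14, each overlapping its RefSeq position. The 12 libraries shared the same lowest value, median and highest value and held 687 to 690 distinct values each, as after quantile normalization, so a shift of all genes cannot be seen and high values lie on shared steps. Depth is unknown, and no counting interval was given.

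Groups came from the sample titles. The genotype label of the OE libraries is the same as that of KO, c-Jun Knockout, and their titles alone, which add +cJun, set them apart. Because the scores are not counts, log2(value + 1) was fitted with limma 3.58.1 in R 4.3.3, with a mean for each of 6 groups, an intensity trend and 6 residual degrees of freedom. A filter that asked for 1 or more in 2 or more libraries removed 0 genes. A gene was called at a Benjamini-Hochberg adjusted p under 0.05 over all 9497 genes and a difference of 2-fold or more, and in the interaction test at the adjusted p alone. Intervals are 95%. P-values are two-sided. Labels do not say whether replicates came from separate cultures, so p-values measure the spread between these libraries, which may be technical. Single markers were also compared, 4 libraries against 4, by exact permutation. Differences on this scale understate the change of low genes.

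The markers and gene lists were chosen with earlier results of these data known. Genes named beside the markers are, by rule, JUN, the 3 genes most like each marker by Pearson's r, and the 2 genes of each list with the largest difference over both days in KO against WT or OE against KO. Some genes that this rule names are not reported here. NOTCH3, UBE2C, BUB1, ONECUT2, WNT8B and MSX1 were named from counts after their values were seen. Upstream bases came from RefSeq windows of 250 bases before and 50 after a start. Same-numbered replicates were checked for pairing over 15 pairs of groups: the correlation of their deviations lay between -0.21 and 0.26 and was over 0.1 in 1, so the numbers were not taken to pair samples. In simulated data for KO against WT at day 25, the fit called 7.8% of genes given a log2 difference of 1 and 75.8% of those given 2, and over both days 32.7% and 90.9%. Each simulation changed 200 genes. In the same order, a mean of 5.2, 21.8, 10 and 16.4 unchanged genes per simulation were also called. Alternatives were other pseudocounts (0.1, 5), no filter, quantile normalization, a minimum mean of 50, centring on the median, library weights, the replicate block, no trend, a fit of only the groups compared, other thresholds, and leaving out single libraries. Ranks in place of values, and leaving out replicate 2 of both KO groups, were added after seeing the data.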

Additional observations from a re-analysis of the deposited data

Results flagged for a closer look

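Sets of 4 libraries (5 markers in 3 genotypes, both days together) were searched for a library whose gap to its nearest neighbour was large against the range of the set by Dixon's 95% critical value. Of the 12 sets of NES, PTPRZ1, SOX2 and PAX6, 2 held one, where chance flags about 1 set in 20. The values of VIM lie on shared steps, so 2 of its sets passed the critical value between steps, the third held 1 value only and could not be tested, and none is set against chance. NES was at 340 in KO at day 25 replicate 2, against 1130 to 1259 in the other KO libraries. SOX2 was at 382 in KO at day 30 replicate 1, against 130 to 139 in the other 3. VIM was at 9910 in WT at day 25 replicate 1, against 3452 in the other 3, and at 2670 in KO at day 25 replicate 2, against 3452 to 3456. Of these 4 values, 3 lay in KO, whose replicates were also the farthest apart across all genes. The difference between KO and WT did not pass the test of a difference between days in any marker, with limma adjusted p values from 0.802 to 0.886. Causes were not tested.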

How the results depend on the processing

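Replicate groups of 2, an unknown depth and values that lie on steps limit what these libraries can show. With other pseudocounts, no filter, a mean of at least 50, quantile normalization or median centring, the count of markers called stayed as reported in each of the 14 comparisons. The filter removed 0 genes and all libraries had the same median, so no filter and median centring could not change the result. The libraries already held nearly the same set of values, so quantile normalization could change it little. In OE against KO over both days the count fell from 1 to 0 with the replicate block (SOX2 adjusted p = 0.0617; the block changed no other marker's call), with library weights, with no trend, with only the libraries compared and without replicate 2 of both KO groups. The last setting gave 1 in OE against KO at day 25, SOX2. With an unadjusted p under 0.05 and 2-fold the count was 2 in KO against WT at day 25 and 1 over both days, and 3, 1 and 2 in OE against KO (day 25, day 30, both days). The cause of these changes was not tested. For other named genes, some lost calls stand beside their values, and further calls were lost in OE against KO over both days. UBE2C, BUB1 and MSX1 lost theirs with the replicate block, library weights, no trend and only the KO and OE libraries. MCM7 lost its call with library weights, no trend and only the KO and OE libraries. MKI67 lost its call with no trend and with only the KO and OE libraries. CCNA2, RSPO2, LMX1B and WNT8B lost theirs with library weights and with only the KO and OE libraries. The median of the 10 correlations between pairs of markers, 0.52, became 0.20 by Spearman's rho and 0.072 without the KO libraries.

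With 1 library left out, the lone replicate was assumed to vary like the other groups. The count of markers called then ranged from 0 to 1 in KO against WT, OE against WT and OE against KO at day 25, OE against KO at day 30, in the interaction of KO with day, and from day 25 to 30 within WT and within KO, and from 0 to 2 in KO against WT at day 30 and over both days and in OE against KO over both days. VIM passed when the other WT library at day 25 was left out, NES when KO at day 25 replicate 1 was, and PTPRZ1 and SOX2 when KO at day 30 replicate 1 was. Differences that changed sign had these ranges on the log2 scale. In KO against WT at day 30 they were -0.16 to 0.14 for NES, -2.62 to 0.23 for PTPRZ1, -1.14 to 0.41 for SOX2 and -0.54 to 0.044 for PAX6. In OE against KO they were -0.37 to 0.79 for PAX6 and -0.0017 to 0.37 for VIM at day 25, -0.40 to 2.45 for PTPRZ1 at day 30, and -0.48 to 0.10 for PAX6 and -0.0013 to 0.18 for VIM over both days. In OE against WT, PTPRZ1 ranged from -1.01 to 0.81 at day 25, from -0.75 to 0.40 at day 30 and from -0.59 to 0.32 over both days, and NES from -0.066 to 0.23 at day 30. For the KO effect at day 30 minus day 25 they were -0.43 to 2.42 for PTPRZ1, -0.25 to 1.30 for SOX2 and -0.12 to 1.03 for PAX6. For day 30 against day 25 averaged over genotypes they were -0.090 to 0.50 for NES, -0.32 to 0.63 for PTPRZ1, -0.32 to 0.067 for PAX6 and -0.45 to 0.062 for VIM. Within WT they were -0.26 to 0.039 for NES, -0.73 to 0.43 for PTPRZ1, -0.034 to 0.39 for SOX2 and -0.38 to 0.058 for PAX6, within KO -0.59 to 2.26 for PTPRZ1, -0.070 to 1.48 for SOX2, -0.29 to 0.87 for PAX6 and -0.00084 to 0.37 for VIM, and within OE -1.13 to 0.69 for PTPRZ1. None of these was called in the fit of all libraries. Without replicate 2 of both KO groups, sign changes gave, in KO against WT at day 30, 0.070 for NES, 0.23 for PTPRZ1, 0.41 for SOX2 and 0.044 for PAX6, in OE against KO -0.37 for PAX6 and -0.0017 for VIM at day 25, -0.40 for PTPRZ1 at day 30 and -0.00084 for VIM over both days, and from day 25 to day 30 -0.064 for NES over all genotypes and -0.0017 for VIM within KO. With ranks in place of values VIM in OE against KO over both days was -0.13.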
